A study of Mus musculus with 194 samples.

Results

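A group of 10 transcription factors that sets the balance between effector and memory fates of CD8+ T-cells was followed in single cells of known ancestry. They are Tbx21, Eomes, Prdm1, Tcf7, Lef1, Id2, Id3, Bach2, Zeb2 and Foxo1, chosen by symbol, and all 10 have a row among the 23420 rows of the expression table. Cells were grown from single founders in a microfluidic trap array under time-lapse imaging, so that the sister and cousins of most cells are recorded, and each released cell gave 1 Smart-Seq2 library. The CD8+ T-cells came from the spleens of C57BL/6J mice of both sexes and several ages, were purified with a CD8a isolation kit, were activated for 30 h with plate-bound anti-CD3 (5 μg/mL) and soluble anti-CD28 (2 μg/mL), and were then cultured on-chip with IL2 at 100 U/mL. L1210 is a lymphocytic leukemia line (DBA subline 212) that divides without activation, and it was cultured on-chip with neither the antibodies nor IL2. After removal of doublets and of libraries with fewer than 1000 genes above 0 TPM, 97 CD8 and 81 L1210 libraries remained, 4 doublets and 5 sparse libraries having been left out of the first and 2 and 5 of the second. Neither a mouse nor a culture is named for any cell, so that each cell type is 1 sample, and mouse and lineage cannot be told apart.

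The 97 CD8+ T-cells fell into 34 lineages, of which 27 had at least 2 cells, and the 81 L1210 cells into 26, of which 24 had at least 2. Libraries of CD8+ T-cells held 2639 to 10905 genes above 0 TPM (median 6862) and those of L1210 cells 1610 to 10454 (median 8402). TPM keep no read depth, and a value of 0 may be a transcript missed in that cell. The 8 T-cell markers summed to 1328 to 6678 TPM in every CD8+ T-cell, while Cd4 was above 0 TPM in 2 of them and of the 8 B-lineage markers 3 were above 0 in some cell. Their sum was above 0 in 49 of the 97 cells and reached 283 TPM, with the lineage-defining Pax5 and Ebf1 and the pre-B genes Vpreb1 and Igll1 at 0 in all, and their part in the results was not tested. The NK-cell markers summed above 0 in 16 CD8+ T-cells and reached 144 TPM, and the myeloid markers in 11, reaching 3.76 TPM. In L1210 cells the T-cell markers summed to 0 to 75.6 TPM, above 0 in 50 of 81 cells and with 6 of the 8 above 0 in some cell, while Cd3e and Cd3g were at 0 in all. Their B-lineage markers summed to 485 to 4863 TPM, above 0 in all 81 cells, and all 8 were above 0 in some cell. The myeloid markers summed above 0 in 55 L1210 cells and reached 180 TPM, and the NK-cell markers in 2, reaching 2.86 TPM. The part of the NK-cell and myeloid markers in the results was not tested in either type.

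Activated CD8+ T-cells divide into short-lived effectors, armed with cytotoxic proteins such as granzyme B, and into memory precursors that keep the capacity to self-renew. The T-box factor T-bet (Tbx21), Blimp-1 (Prdm1), Zeb2 and the E-protein inhibitor Id2 are associated with the effector side. Eomesodermin (Eomes), also a T-box factor, was counted with them here, a choice of grouping that was not tested. TCF-1 (Tcf7), its relative Lef1, the E-protein inhibitor Id3, the repressor Bach2 and the forkhead factor Foxo1 are associated with naive and memory states. Id2 and Id3 lack a DNA-binding region and hold E proteins away from E-box sequences.

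Tbx21 (chromosome 11:97098071-97115331, minus strand) and Eomes (chromosome 9:118478212-118486132, plus strand, both GRCm38) encode related T-box proteins whose levels had one of the largest rank correlations between members over lineages, as given further on. For that reason the 250 bases before their RefSeq starts (GRCm38.p6) are printed here, 5′ to 3′ on the strand of the gene. The windows span chr11:97115332-97115581 and chr9:118477939-118478188, neither overlapping an annotated gene in GENCODE. Capitals mark an E-box (CANNTG).
Tbx21: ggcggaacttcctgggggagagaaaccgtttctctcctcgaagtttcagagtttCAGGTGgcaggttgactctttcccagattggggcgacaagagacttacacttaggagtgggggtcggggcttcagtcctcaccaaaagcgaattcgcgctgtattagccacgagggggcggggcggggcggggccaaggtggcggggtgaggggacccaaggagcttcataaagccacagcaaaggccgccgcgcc
Eomes: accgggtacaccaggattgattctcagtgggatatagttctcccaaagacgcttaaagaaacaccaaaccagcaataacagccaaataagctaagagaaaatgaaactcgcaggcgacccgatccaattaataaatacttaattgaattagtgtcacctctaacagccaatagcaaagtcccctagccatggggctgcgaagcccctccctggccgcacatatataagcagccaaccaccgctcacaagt

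The Tbx21 window held 1 E-box and the Eomes window 0, where 66.2% of the 32851 RefSeq promoter windows of this length held at least 1. Neither held the T-box core TCACAC (12.3% of all windows) or the TCF/LEF cores CTTTGA and CTTTGT (27.6%), on either strand. The GC content was 60.8% for Tbx21 and 46.4% for Eomes.

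Id3, Tcf7, Id2 and Lef1 had the highest median levels of the 10 in CD8+ T-cells, and Prdm1 and Zeb2 were near absent from them. All levels below are TPM, which are scaled for transcript length and can be compared between genes. Id3 (chromosome 4:136143497-136145755, plus strand) was above 0 TPM in 85 of 97 cells and reached the highest level, between 0 and 1508 TPM with a median of 182. Tcf7 (chromosome 11:52252371-52283014, minus strand) was above 0 in 89 cells, with a median of 55.0 and a maximum of 474 TPM, and Lef1 (chromosome 3:131110471-131224356, plus strand) in 91 cells, with a median of 43.4 and a maximum of 248 TPM. Foxo1 (chromosome 3:52268336-52353221, plus strand), detected in 70 cells, had a median of 5.97 TPM and a maximum of 64.5, and Bach2 (chromosome 4:32238804-32586108, plus strand), in 67 cells, a median of 1.17 and a maximum of 49.2.

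On the effector side, Id2 (chromosome 12:25093799-25097140, minus strand) was above 0 TPM in 76 of 97 cells, with a median of 49.7 and a maximum of 376 TPM. Tbx21 was above 0 in 73 cells, with a median of 32.5 and a maximum of 364 TPM. Eomes was listed at 0 in more cells than not, being above 0 in 47 (48.5%, exact 95% binomial interval 38.2 to 58.8%), with a maximum of 89.3 TPM. Prdm1 (chromosome 10:44437177-44528501, minus strand) and Zeb2 (chromosome 2:44983632-45117395, minus strand) were rare transcripts, Prdm1 in 8 cells (8.25%, 3.63 to 15.6%) with a maximum of 21.1 TPM and Zeb2 in 14 (14.4%, 8.12 to 23%) with a maximum of 14.5 TPM. These intervals cover counting error only. The single cell with the most Prdm1, CD8_29, was also the one with the most Tbx21. Both Prdm1 and Zeb2 missed the filter on low values, ln(TPM + 1) above 1 in more than 10% of cells, which the other 8 members passed. They entered no test in CD8+ T-cells.

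By the mean of the 27 lineage means of ln(TPM + 1), the order ran Id3 (4.56 ± 1.22, SD, n = 27), Tcf7 (3.59 ± 1.22), Lef1 (3.42 ± 0.84), Id2 (3.20 ± 1.57), Tbx21 (2.84 ± 1.38), Foxo1 (1.59 ± 0.80), Bach2 (1.21 ± 0.85), Eomes (1.02 ± 1.00), Prdm1 (0.11 ± 0.23) and Zeb2 (0.10 ± 0.26). For all neighbours in that order, the mean difference was smaller than its SD over lineages. Tcf7 exceeded Lef1 in 14 of 27 lineages, and Tbx21 exceeded Foxo1 in 21. Id2, Tbx21 and Tcf7 had the widest ranges of lineage means, 0 to 5.42, 0 to 5.11 and 0.849 to 5.47.

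A CD8+ T-cell had a median of 6 of the 10 factors above 0 TPM, with extremes of 0 and 10, and this number was higher in cells with more detected genes (Spearman's rho = 0.730 over 97 cells, which share lineages, a description). Factors of the opposing sides were often detected in the same cell. Tcf7, Id3, Id2 and Tbx21 were each above 0 in most cells (89, 85, 76 and 73 of 97), so that joint detection is frequent by these shares alone. Whether any 2 of them met more or less often than that was not tested. Tcf7 and Id2 were both above 0 in 71 cells, Tcf7 without Id2 in 18, Id2 without Tcf7 in 5 and neither in 3. Id2 and Id3 were both above 0 in 65 cells, Id2 without Id3 in 11 and Id3 without Id2 in 20. Tbx21 and Tcf7 were both above 0 in 67 cells, Tbx21 without Tcf7 in 6 and Tcf7 without Tbx21 in 22. Eomes was above 0 without Tbx21 in 3 cells and together with it in 44, while 29 cells had Tbx21 without Eomes.

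**Figure D1:**
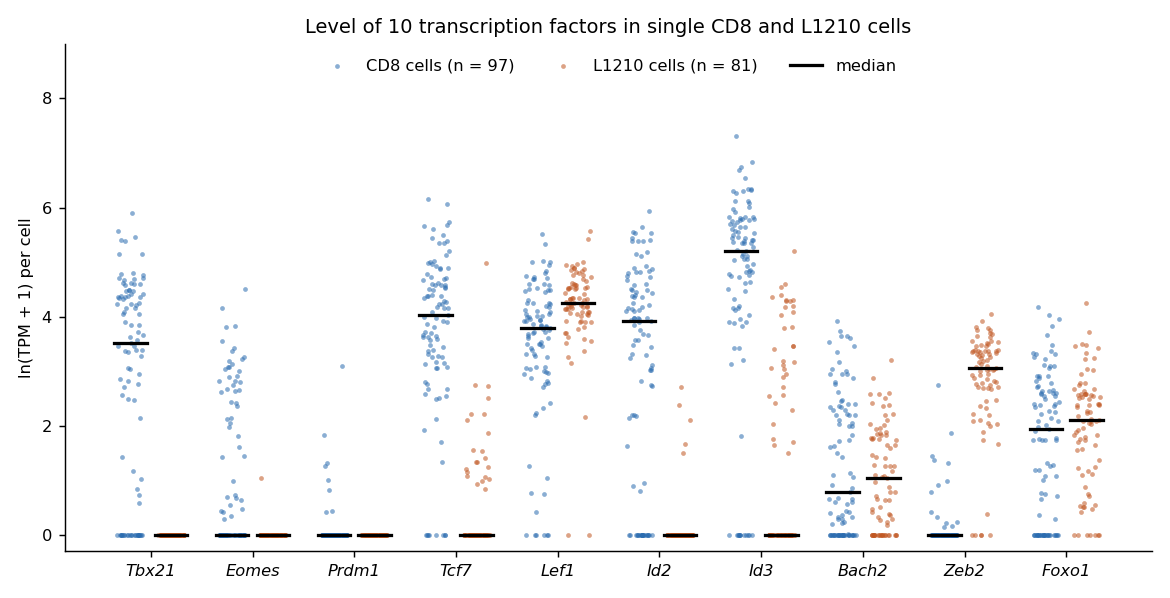
Each point is 1 cell, with ln(TPM + 1) on the vertical axis and the 10 members on the horizontal axis, CD8+ T-cells in blue (n = 97) and L1210 cells in orange (n = 81), and bars mark medians. Tbx21, Eomes and Id2 are near or at 0 in L1210 cells and Zeb2 is near 0 in CD8+ T-cells, while Lef1, Bach2 and Foxo1 overlap in both.

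L1210 cells carried a different set. Of the 10 factors, Tbx21 and Prdm1 were at 0 in all 81 cells (0 to 4.45%, exact 95% interval), Eomes was above 0 in 1 cell and Id2 in 5. Zeb2, in contrast, was above 0 in 76 cells with a median of 20.3 TPM and a maximum of 56.4. Lef1 was above 0 in 79 cells with a median of 69 TPM, Foxo1 in 74 with a median of 7.19 and Bach2 in 59 with a median of 1.8. Id3 was above 0 in 35 cells and Tcf7 in 22, both with a median of 0.

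With 1 sample of each type no test was made, and a mean TPM at least 4-fold apart was counted as a difference. Of the 9 members that passed the filter in either type, 5 were past 4-fold higher in CD8+ T-cells, where 8.72% of 11373 genes were, and 1 was past 4-fold lower, where 13.8% of genes were. Tbx21, Eomes and Id2 passed the filter in CD8+ T-cells alone and Zeb2 in L1210 cells alone, so that their 4-fold calls follow in part from the filter. Of the members that passed it in both types, Tcf7 and Id3 were past 4-fold and Lef1, Bach2 and Foxo1 were not. Mean TPM were 68.5 against 0.475 for Id2 (144-fold), 7.61 against 0.0225 for Eomes (339-fold, resting on 1 L1210 cell), 83.2 against 3.04 for Tcf7 (27.4-fold) and 230.2 against 18 for Id3 (12.8-fold). Tbx21 averaged 53.9 TPM in CD8+ T-cells and is listed at 0 in L1210 cells. Zeb2 averaged 21.1 TPM in L1210 cells and 0.359 in CD8+ T-cells, 58.6-fold higher in the leukemia line. Bach2 (6.89 against 3.35), Lef1 (52.7 against 78.7) and Foxo1 (9.88 against 9.89) were within 4-fold. A single cell, L1210_27, held 144 TPM of Tcf7 where the next highest held 14.5, and without it the ratio for Tcf7 was 65.3. That library had 3190 genes above 0 TPM.

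Related CD8+ T-cells were closer to each other in Tcf7 and in Id2 than to cells of other lineages. For each lineage, the mean absolute difference in ln(TPM + 1) between its sisters and cousins was set against that between the same cells and all cells outside the lineage. For Id2 these means were 1.51 ± 0.84 and 2.16 ± 0.39 (SD, n = 27 lineages), a change of -30.0%, and the related difference was the smaller one in 21 of 27 lineages (sign-flip permutation over lineages, 2-sided, adjusted p = 0.0254 over 9997 genes). For Tcf7 they were 1.16 ± 0.85 and 1.65 ± 0.49, a change of -29.8%, lower in 22 of 27 lineages (permutation, adjusted p = 0.0335). Of the 8 members tested, these 2 passed, where 2.19% of all genes did in the same direction. Over all genes the median change was -8.38%, and Gzmb, the gene of granzyme B, had -54.3%, lower in 24 lineages (permutation, adjusted p = 0.00454).

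Sisters and cousins were also set against unrelated cells separately, with no test. The change for Id2 was -28.6% among sisters (27 lineages) and -29.8% among cousins (20 lineages), and for Tcf7 -25.9% and -24.7%. Among cousins the changes of Eomes (-26.9% and -37.3%) and Tbx21 (-17.5% and -36.0%) were larger than these. Bach2 had -19.5% and -11.3%, Lef1 -19.2% and -1.07%, Id3 -10.0% and -13.0%, and Foxo1 -9.59% and -1.23%. Among 43 sister pairs, both cells had Tcf7 above 0 TPM in 35 and 1 of them in 8. For Id2 both had it in 28 pairs, 1 in 11 and neither in 4.

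The number of detected genes was itself closer between relatives (-28.3%, lower in 22 of 27 lineages, permutation p = 0.00028). With ln(TPM + 1) taken as residuals on that number, the difference was -0.59 for Tcf7 and -0.51 for Id2 in ln(TPM + 1), against -0.49 and -0.65 without residuals (permutation adjusted p = 0.0143 and 0.0834). Both calls were lost, at differences of -0.32 and -0.55, with unrelated cells restricted to those in which Xist and Y-linked genes were detected or missed alike (adjusted p = 0.395 and 0.119, permutation), at -0.34 and -0.65 with recorded cousins only (0.255 and 0.0914), and at -0.48 and -0.89 with a pseudocount of 0.1 TPM (0.163 and 0.0511).

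The other T-box and memory factors did not pass. Eomes had -23.5% (lower in 17 of 27 lineages, adjusted p = 0.297), Tbx21 -16.7% (17 lineages, 0.595), Bach2 -15.7% (14 lineages, 0.546), Lef1 -8.75% (20 lineages, 0.656), Id3 -7.41% (19 lineages, 0.834) and Foxo1 -2.27% (14 lineages, 0.954), all by the same permutation. Tbx21 had the widest spread of this difference over lineages (SD 1.43 in ln(TPM + 1)). It was at 0 in every cell of 3 lineages of 4 cells each, above 0 in every cell of 15 lineages and mixed in 9. Eomes was at 0 in every cell of 6 lineages, among them those 3, whose 12 cells had 2952 to 7317 detected genes and lineage means of Gzmb between 1.27 and 6.04 in ln(TPM + 1). In the lineages of CD8_9, CD8_59 and CD8_103, also at 0 for Eomes, the lineage means of Tbx21 were 2.09, 3.12 and 3.43. Prdm1 was never above 0 in both of a sister pair, being above 0 in 1 sister in 7 of 43 pairs, and Zeb2 was above 0 in both sisters of 2 pairs and in 1 of 7 pairs.

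**Figure D2:**
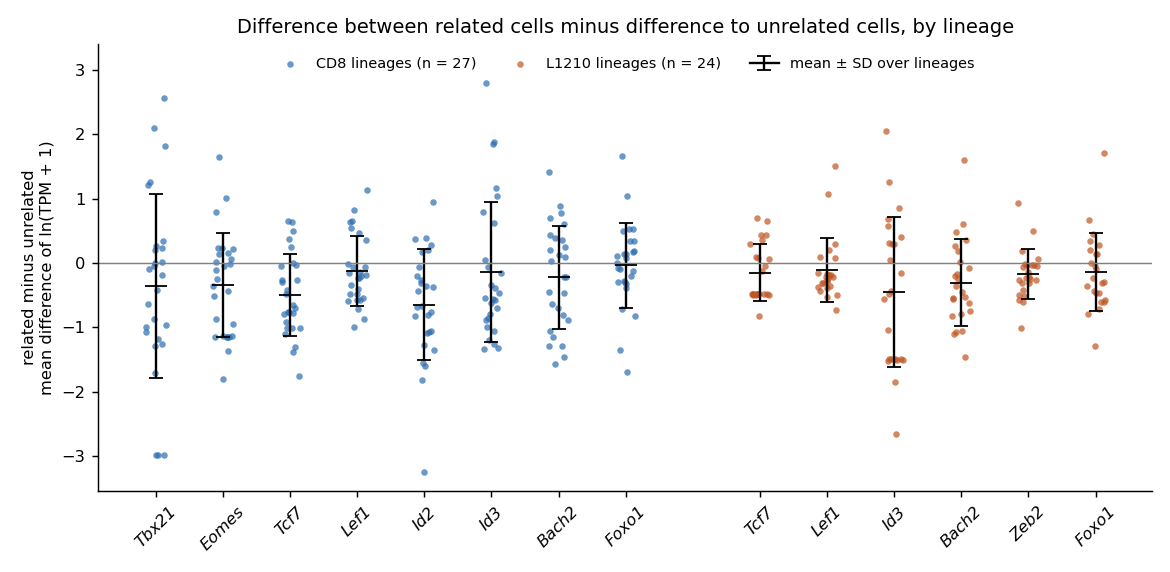
Each point is 1 lineage, and the vertical axis gives the mean difference in ln(TPM + 1) between related cells minus that to cells of other lineages, for 8 members in 27 CD8 lineages (blue) and 6 members in 24 L1210 lineages (orange). Crosses with bars are the mean and SD, and points below 0 are lineages whose cells resemble each other more, as for Id2 in 21 and Tcf7 in 22 CD8 lineages.

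In L1210 lineages 0 of 6 members passed, where 0.37% of 10536 genes were called more alike. At an unadjusted p under 0.05 there were Bach2 (-28.5%, lower in 17 of 24 lineages, permutation p = 0.0369, adjusted 0.316) and Zeb2 (-18.3%, lower in 20 lineages, permutation p = 0.0382, adjusted 0.319). Tcf7 had -21.3%, Id3 -24.4%, Lef1 -13.9% and Foxo1 -12.0%. The number of detected genes was closer between relatives there as well (-38.4%). The difference between cell types was tested for the 5 members that passed the filter in both, and 0 passed, as did 0 of all 9158 genes. For Tcf7 the CD8 minus L1210 value was -0.34 in ln(TPM + 1) (permutation of cell type over lineages, unadjusted p = 0.0343, adjusted p = 0.809).

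Lineages with more Gzmb had more Id2 and less Tcf7. The lineage means of Gzmb ran from 0.203 to 8.82 in ln(TPM + 1) over 27 lineages, with a median of 6.61. Those of Id2 correlated with them positively (Spearman's rho = 0.602, permutation p = 0.00125, adjusted p = 0.0311 over 9996 genes; Pearson's r = 0.590, permutation p = 0.00139, adjusted p = 0.0319). Those of Tcf7 correlated negatively (rho = -0.595, permutation p = 0.0013, adjusted p = 0.0317), where r was -0.457 (permutation p = 0.0164, adjusted p = 0.123). Among all genes 5.3% had a positive and 0.22% a negative rho past the threshold, so that the direction of Tcf7 was the rarer one.

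As an illustration, the lineages of 4 cells with the lowest and the highest mean Gzmb are given cell by cell. In the lineage of CD8_59 to CD8_62, Gzmb was at 23.6, 2.56, 0 and 0 TPM, Tcf7 at 110.5, 146, 181 and 272 TPM, and Id2 at 63, 31.7, 14.5 and 0 TPM. In the lineage of CD8_83 to CD8_86, Gzmb was at 2447, 2102, 5274 and 2219 TPM, Tcf7 at 24.8, 34.9, 70.5 and 0 TPM, and Id2 at 89.7, 48.3, 223 and 257 TPM. Other lineages toward the same ends overlapped in Tcf7. It was at 51.7, 0, 109 and 113 TPM in CD8_65 to CD8_68 and at 58.8, 78.3, 14.8 and 5.8 TPM in CD8_25 to CD8_28. Not every lineage had Tcf7 or Id2 high and the other low. The lineage of CD8_1 to CD8_4, with Gzmb at 516, 45.9, 350 and 0 TPM, had both, with Id2 at 252, 172, 137 and 38.6 TPM and Tcf7 at 39.1, 217, 131 and 306 TPM.

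**Figure D3:**
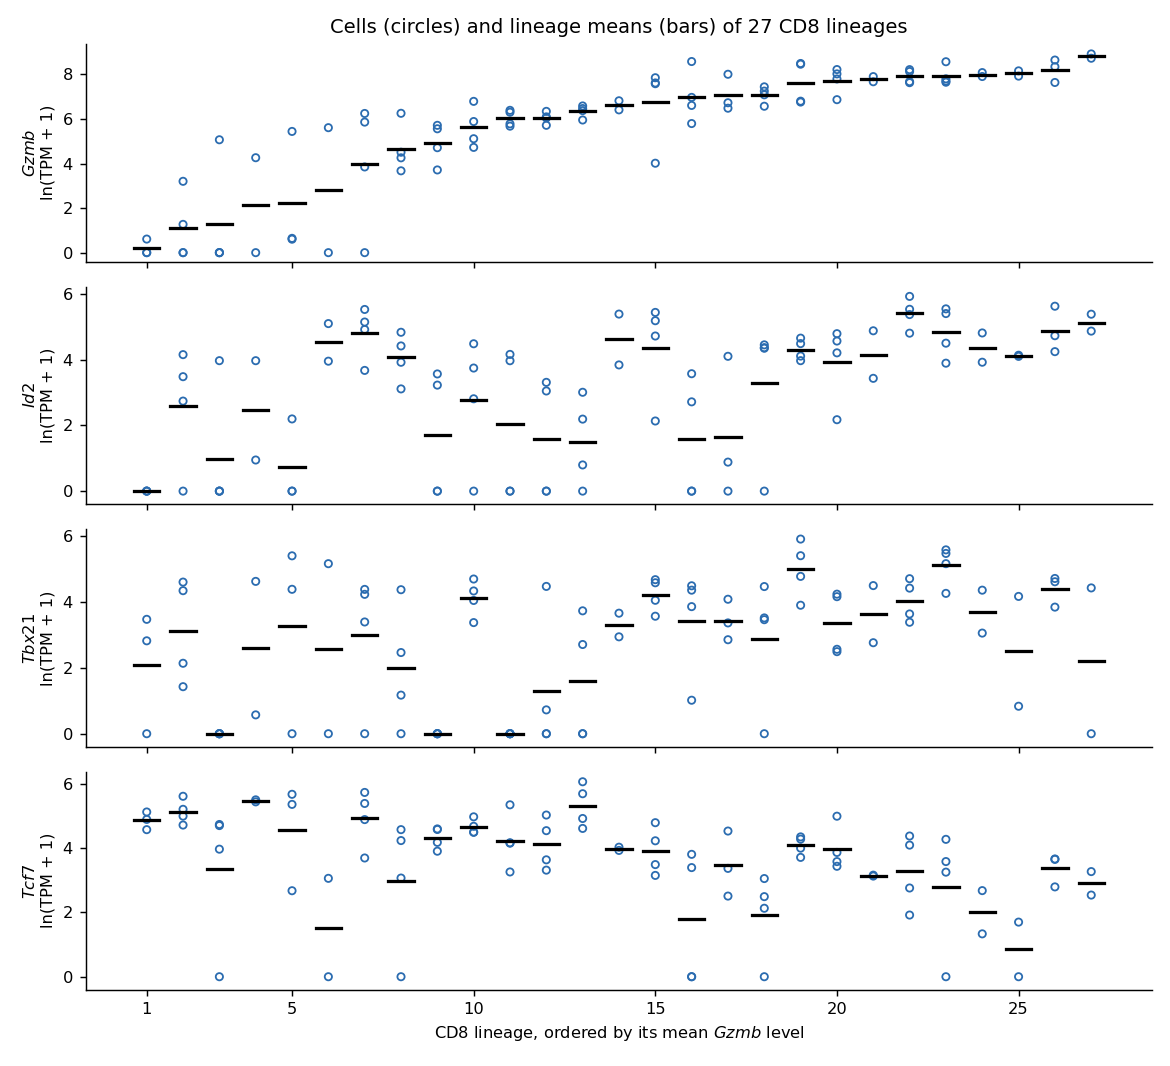
The 27 CD8 lineages stand on the horizontal axis in the order of their mean Gzmb, and each panel gives ln(TPM + 1) of Gzmb, Id2, Tbx21 or Tcf7, with 1 circle per cell and a bar at the lineage mean. Id2 is high and Tcf7 low toward the right (rho = 0.602 and -0.595), with lineages that go against both, and 3 lineages have every cell at 0 for Tbx21.

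Among the other members, Tbx21 had rho = 0.498 with Gzmb (r = 0.408, permutation adjusted p = 0.0943 for rho and 0.179 for r) and Eomes 0.381 (r = 0.314, 0.254 and 0.337). On the memory side Bach2 had -0.432 (r = -0.322, permutation adjusted p = 0.168 and 0.322), Foxo1 -0.409 (r = -0.345, 0.203 and 0.278) and Id3 -0.192 (r = -0.131, 0.648 and 0.751). Lef1, unlike its relative Tcf7, had 0.109 (r = 0.186, permutation adjusted p = 0.823 and 0.625). The sign for Lef1 turned to -0.0214 with cells of at least 4000 detected genes and to -0.244 with residuals on detected genes. Over the 97 cells, which share lineages and depth, rho with Gzmb was 0.337 for Zeb2 and 0.310 for Prdm1, as a description.

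Lineage means of detected genes correlated with those of Gzmb (rho = 0.535) and of Id2 (0.417), and less with those of Tcf7 (-0.0757), all over 27 lineages. With residuals on detected genes the relation to Gzmb had rho = -0.625 for Tcf7 and 0.479 for Id2 (permutation adjusted p = 0.0484 and 0.16). Without the 2 lineages farthest from the median of Gzmb, those of CD8_9 and CD8_59, rho was 0.554 for Id2 (r = 0.508) and -0.517 for Tcf7 (r = -0.346), and both calls were lost (permutation adjusted p = 0.0774 and 0.106). Whether leaving out other lineages has the same effect was not tested. Each call held in 5 of 10 alternatives, with the same direction in all.

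Between members, the largest positive correlations were among the effector-side factors and the largest negative ones between these and Id3, and none passed the threshold. The 28 pairs of the 8 tested members were correlated over the 27 lineage means, and 0 passed when adjusted over all genes for both members of a pair, against 8 at an unadjusted permutation p under 0.05. Over all genes, 0.06% passed positively with Tbx21, 0.04% with Lef1, 0.02% with Foxo1, 0.01% with Tcf7, and 0% with each of the other 4, and 0.01% passed negatively with Tcf7. The smallest p that 100000 resamples allow is 1e-05, so that over 9996 genes no gene can pass alone at it. These shares therefore depend on the number of resamples, and a share of 0% does not exclude a strong relation. The largest rho were 0.652 for Eomes with Id2 (permutation p = 0.00041, adjusted p = 0.121, r = 0.651 with permutation p = 0.0003), 0.607 for Tbx21 with Eomes (permutation p = 0.00121, adjusted p = 0.168, r = 0.560 with permutation p = 0.0025) and 0.515 for Tbx21 with Id2 (permutation p = 0.00679, adjusted p = 0.207, r = 0.544 with permutation p = 0.00301). Without the 2 lineages farthest in the first gene of each pair, rho was 0.588, 0.531 and 0.478. Id3 had negative values with all of these, -0.465 for Tbx21, -0.446 for Id2 and -0.412 for Eomes (permutation adjusted p = 0.99957 for each, the larger of the 2 values of a pair, from the adjustment for Id3). Lineage means of detected genes had rho = 0.417 with Id2, 0.386 with Eomes, 0.340 with Tbx21 and -0.184 with Id3. With residuals on detected genes the 3 positive pairs had rho = 0.538, 0.477 and 0.376, and those with Id3 -0.427 (Tbx21), -0.383 (Id2) and -0.379 (Eomes). The E-protein inhibitors Id2 and Id3 had rho = -0.418 over the 97 cells.

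Tcf7 had rho = 0.439 with Bach2 (r = 0.378, permutation adjusted p = 0.628) and -0.404 with Id2 (r = -0.390, 0.424), but 0.0867 with Lef1 (0.915) and -0.0879 with Id3 (0.99957). The values of Tcf7 with Tbx21 and Eomes were -0.190 and -0.133.

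**Figure D4:**
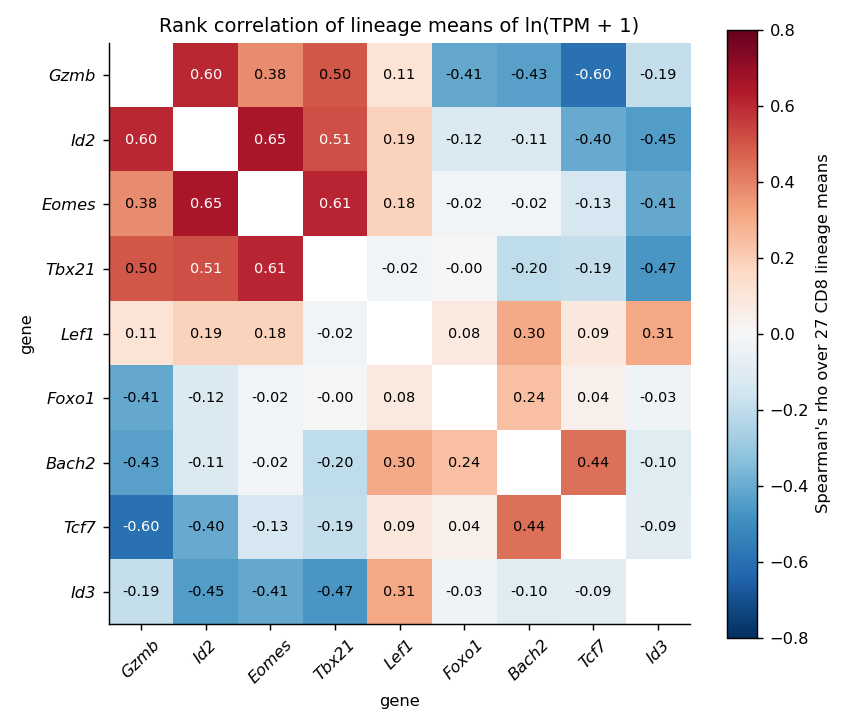
The heat map gives Spearman's rho between the lineage means of ln(TPM + 1) of Gzmb and 8 members over 27 CD8 lineages, red for positive and blue for negative values. Id2, Eomes and Tbx21 form a positive block (0.515 to 0.652), to which Id3 is negative in each case, and the lineage means of detected genes have the same signs with these 4.

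No member passed the test against time since division. Over CD8 lineages, whose mean times ran from 0.560 to 9.39 h, rho between the lineage mean of a member and its time lay between -0.162 and 0.102 (r between -0.189 and 0.120), and the smallest permutation adjusted p for rho was 0.877, where 0.0401% of 9967 genes passed positively and 0.01% negatively. Over L1210 lineages rho lay between -0.384 (Id3) and 0.162 (r between -0.398 and 0.194) with an adjusted p of 1 for each rho, and 0% of genes passed. An unadjusted p under 0.05 was reached by 0 members in either type.

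Other genes of the effector and memory programs were read from 3 lists, namely 20 effector genes, 16 naive and memory genes and 31 partner regulators. Over all genes 2.19% were more alike within lineages, 5.3% rose and 0.22% fell with Gzmb, so that 1 or 2 calls in a list of this size say little of the list. Among 12 effector genes tested, 1 was more alike within lineages, Nkg7 of cytotoxic granules (-32.2%, permutation adjusted p = 0.0153), and 2 rose with Gzmb over lineages, the IL2 receptor chain Il2rb (rho = 0.662, permutation adjusted p = 0.014, r = 0.610 with 0.0248) and the death ligand Fasl (0.588, 0.0359, r = 0.531 with 0.0629). Among 15 naive and memory genes, 3 were more alike, the lymphotoxin gene Ltb (-40.4%, permutation adjusted p = 0.0075), the lymph-node homing receptor Ccr7 (-38.2%, 0.0156) and Dapl1 (-47.4%, 0.0243). Ccr7 fell with Gzmb (rho = -0.622, permutation adjusted p = 0.0241, r = -0.473 with 0.101), as Tcf7 did, and the adhesion receptor Cd44 rose (0.584, 0.0392, r = 0.612 with 0.0244). Over 10 alternatives the relation to Gzmb was lost for Fasl in 7 (adjusted p up to 0.321, permutation), for Cd44 in 5, for Ccr7 in 4 and for Il2rb in 1, and over 11 the likeness of Nkg7 in 3, of Ltb and Ccr7 in 2 each and of Dapl1 in 1, with the direction the same in all. The median rho with Gzmb was 0.241 over the effector genes and -0.296 over the naive and memory genes and -0.0324 over the partner regulators, against 0.132 over all genes.

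Of 28 partner regulators, the interferon-regulatory factor Irf8 was more alike within lineages (-35.9%, lower in 22 lineages, permutation adjusted p = 0.0131) and rose with Gzmb (rho = 0.753, permutation adjusted p = 0.00448, r = 0.727 with 0.00714), and the basic helix-loop-helix factor Bhlhe40 also rose with Gzmb (0.662, 0.0145, r = 0.758 with 0.00425). The likeness of Irf8 was lost in 3 of 11 alternatives (adjusted p up to 0.424, permutation) and the relation of Bhlhe40 to Gzmb in 3 of 10, while that of Irf8 held in all 10. Over lineages Irf8 had rho = 0.572 with Id2 and -0.501 with Tcf7 (permutation adjusted p = 0.152 and 0.281). A partner regulator passed with 2 of the members, the zinc-finger factor Klf3 with Tcf7 and the AP-1 factor Batf with Tbx21, both positively (Batf was named after its values were seen). Over all genes 0.01% passed positively with Tcf7 and 0.06% with Tbx21. Such calls are limited by the smallest possible p. Lpp did not pass with Bach2 at a larger rho (0.812) than that of Klf3 with Tcf7 (0.787).

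The genes with the lineage pattern most like each member, by Spearman's rho over 27 lineages among 9996 genes, were Dstn (0.857) and the AP-1 factor Batf3 (0.788) for Tbx21, D8Ertd82e (0.775) and Cyp2e1 (0.752) for Eomes, and Sytl2 (0.748) and Farsa (0.747) for Id2. For the memory side they were Klf3 (0.787) and Arrdc3 (0.786) for Tcf7, Tspan14 (0.769) and Tbc1d10c (0.764) for Lef1, Lpp (0.812) and Man1a2 (0.717) for Bach2, and Uri1 (0.766) and Secisbp2l (0.747) for Foxo1. The nearest to Id3 were farther away, Tcf19 (0.602) and Atp5b (0.590). No gene was the nearest of more than 1 member. These are the largest of 9996 values over 27 lineages, so that a high rho follows in part from the choice. With Eomes, Id2, Id3 and Bach2, 0 genes passed the threshold positively, those named here included.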

How the data were processed

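Single-cell Smart-Seq2 libraries were analysed from the TPM that the authors deposited, which they estimated with RSEM 1.2.3 against UCSC gene models of mm10, without log transformation or removal of doublets. TPM sum to 1000000 in each library, and Rn45s took medians of 22.6% (CD8) and 21.9% (L1210) of it. Cells were kept when not labelled doublets and with at least 1000 genes above 0 TPM. Lineages joined cells whose labels name each other, and lineages of 2 or more were the replicates, so that p-values cover variation between lineages and not between mice. Values were ln(TPM + 1), and genes were tested when above 1 in more than 10% of cells. Likeness used sign-flip permutations over lineages, correlations used permuted lineage means, and the contrast of cell types used permuted lineage labels, all 2-sided with 100000 resamples and Benjamini-Hochberg adjustment over all genes tested (threshold 0.05). The smallest possible p was 1e-05, so that with this many genes a gene alone at it does not pass the threshold. TPM are not counts, so that no count test was used. The steps were tested on simulated data.

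The members and lists were chosen with earlier results of these data known. Genes named are the 10 members, Gzmb, list genes past the threshold in likeness or the relation to Gzmb (at most 12, 9 were found), and for each member tested the 2 genes of highest rho. Batf lies outside this rule and was named after its values were seen. Cxcr3 stands in both the effector and the naive and memory list. Each pair of members was read at the larger of its 2 adjusted p-values. Alternatives were pseudocounts of 0.1 and 10 TPM, no gene filter, 4000 detected genes, removal of Rn45s, limma 3.58.1, a Mann-Whitney U-test on pairs of cells, residuals on detected genes or on time, matched Xist and Y-linked detection, other sets of lineages, and Pearson's r. Coordinates are from GENCODE for GRCm38 and promoters from RefSeq, where all 10 members matched. Only the windows of Tbx21 and Eomes are printed. Python 3.11.15, numpy 2.4.6, scipy 1.17.1 and pandas 2.3.3 were used.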

Additional observations from a re-analysis of the deposited data

How the results depend on the processing

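The members called more alike within CD8 lineages were 2, against 0 with a pseudocount of 0.1 TPM, 0 with unrelated cells in which Xist and Y-linked genes were detected or missed alike, 0 with recorded cousins only, 1 (Tcf7) with residuals on detected genes and 4 (Tbx21, Eomes, Tcf7 and Id2) with the Mann-Whitney U-test, whose pairs share cells. Calls over all genes were 220, against 439 without the filter, 124 with limma, 880 with the Mann-Whitney U-test, 32 with Xist and Y-linked detection matched and 70 with recorded cousins only. In L1210 lineages 1 member (Bach2) passed by the Mann-Whitney U-test. Genes called there were 39, against 113 with a pseudocount of 10 TPM, 584 without the filter, 136 with 4000 detected genes, 9 with limma, 545 with the Mann-Whitney U-test and 22 with residuals on detected genes. Between cell types 0 genes were called, against 5 with a pseudocount of 10 TPM, 124 without the filter (1 member, Id2) and 19 with 4000 detected genes.

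For the relation to Gzmb 2 members passed, against 1 (Id2) with a pseudocount of 0.1 TPM, 1 (Id2) by Pearson's r, 1 (Tcf7) with lineages of 1 cell added, 1 (Tcf7) with residuals on detected genes, and 0 without the filter, with recorded cousins only or without the 2 lineages farthest from the median. Genes called were 552, against 292 with recorded cousins only and 161 with residuals on detected genes. Lef1 turned to -0.0214 with 4000 detected genes and -0.244 with residuals. For time over CD8 lineages 5 genes were called, against 13 with 4000 detected genes, 14 with residuals, and 0 without the filter, with recorded cousins only and without the 2 farthest lineages. Of the member pairs 1 passed (Tbx21 with Eomes, rho = 0.671, permutation adjusted p = 0.04) with lineages of 1 cell added. Genes past 4-fold between cell types were 2565, against 7740 without the filter. The causes of these shifts were not tested.

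Tcf7 and Id2 kept their direction in all 11 alternatives for likeness (adjusted p 0.00249 to 0.395 and 0.0146 to 0.119) and in all 10 for the relation to Gzmb (0.0144 to 0.13 and 0.0226 to 0.16). The ratio of Tcf7 without L1210_27 was chosen after seeing the data. TPM keep no depth, so that a value of 0, common for Prdm1, Zeb2 and Eomes, sets no upper limit on a transcript. No paired analysis was possible because the numbers shared by CD8 and L1210 labels name unrelated cells.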
